A study of Homo sapiens with 12 samples.

Results

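PDE7B, ADAMTSL1 and SFTA1P are 3 transcripts of RKO cells that were abundant in control cells, lower in cells overexpressing the alpha form of PRDM1 and lower still in cells overexpressing the beta form. They were chosen by symbol for that pattern, so their levels with alpha, beta and GFP are a description and carry no test. All 3 are among the 26364 genes counted, and all 3 had enough reads to be among the 12858 genes tested. RKO is an established cell line from a human colon carcinoma. The study sequenced polyadenylated RNA of RKO derivatives in 12 libraries, 2 for each of 6 groups. The groups were cells overexpressing PRDM1-beta, PRDM1-alpha or GFP, the PRDM1 knockout derivatives KO5 and KO2 made with CRISPR/Cas9, and PRDM1 wild-type cells, named beta, alpha, GFP, KO5, KO2 and WT here. All groups were RKO cells grown in the same serum-containing medium. The overexpression vector and its promoter, and whether KO2 and KO5 are each 1 clone, are not given in the sources used here. Whether the pairs of libraries stem from separate cultures is not labelled, so the p-values cover the library-to-library spread alone, which may be technical.

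PRDM1 is a zinc finger transcription factor with a PR domain, best known as a repressor of gene programmes during plasma cell differentiation. Its alpha form is the full-length protein, and the beta form starts from an internal promoter and has a truncated PR domain. PDE7B encodes a phosphodiesterase that hydrolyses cAMP, the second messenger that activates protein kinase A, and so limits the duration of a cAMP signal. ADAMTSL1, also called punctin, is a secreted glycoprotein of the extracellular matrix that is built like the ancillary part of the ADAMTS proteases but has no catalytic domain. SFTA1P is a transcribed pseudogene that yields a long noncoding RNA and is named for a surfactant-associated protein of the lung.

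The 250 bases before the RefSeq start of PDE7B and ADAMTSL1 are shown because they can be read for the motif of the overexpressed factor. RefSeq places them, in build GRCh38.p14, at chr6:135851451-135851700 on the plus strand for PDE7B and at chr9:18473903-18474152 on the plus strand for ADAMTSL1, which has further starts. SFTA1P had no entry. Capitals mark matches to the motifs named after the sequences.
PDE7B: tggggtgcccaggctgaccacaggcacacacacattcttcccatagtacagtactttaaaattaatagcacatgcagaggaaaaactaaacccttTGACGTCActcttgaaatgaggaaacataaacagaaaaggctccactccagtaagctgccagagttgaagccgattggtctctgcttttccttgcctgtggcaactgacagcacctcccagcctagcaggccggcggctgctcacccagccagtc
ADAMTSL1: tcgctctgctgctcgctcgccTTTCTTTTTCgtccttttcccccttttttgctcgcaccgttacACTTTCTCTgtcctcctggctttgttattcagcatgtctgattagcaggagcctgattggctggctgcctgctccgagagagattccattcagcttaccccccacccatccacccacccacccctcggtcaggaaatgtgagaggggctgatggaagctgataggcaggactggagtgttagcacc

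Both strands were searched for AGNGAAAG and GAAAGT, forms of the core that PRDM1 binds, for the interferon response element, a pair of GAAA repeats with any 2 bases between that shares its GAAA letters with them, and for TGACGTCA, the cAMP response element, and its shorter part TGACG. The ADAMTSL1 window held AGNGAAAG and GAAAGT in 1 overlapping match on the minus strand, whose letters run from base 186 to base 178 before the start, and the interferon response element on the minus strand from base 229 to base 220. The PDE7B window held none of these 3 and held TGACGTCA from base 155 to base 148. AGNGAAAG stood in 6.57% of 35116 promoter windows of the same length, GAAAGT in 11.4%, the interferon response element in 3.02% TGACGTCA in 1.65% and TGACG in 21.2%. These matches describe letters in the window and do not show binding.

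Gene counts per library ranged from 19058967 to 55961821, and a count of 0 in the shallowest library allows up to 0.157 CPM. CPM are gene counts relative to the library total, after scaling by edgeR's TMM method. Of 11 markers of the labelled colon epithelial origin only 3 reached 1 CPM, KRT8, KRT18 and CDX2. EPCAM, CDX1 and CEACAM5 had 0 counts in every library, and CDH1, KRT19, KRT20, VIL1 and LGALS4 had at most 7 in any library. Markers of lung alveolar type II cells, which make surfactant, summed to at most 0.0704 CPM in KO5 and 0.0176 CPM in WT libraries and to 0 in the other 4 groups, and SFTPA1, SFTPC, SFTPD and NKX2-1 were at 0 throughout. Of the leukocyte markers reported, CD68 reached 1 CPM and averaged 25.4 CPM with beta and 28.2 CPM with alpha, against 18.9 CPM with GFP, and 12.3 CPM in KO5 and 12.1 CPM in KO2, against 18.5 CPM in WT. PTPRC, CD3E and CSF1R had 0 or 1 counts in any library. Of 6 fibroblast markers 3 reached 1 CPM, COL1A1, PDGFRB and POSTN, while DCN was at 0 throughout. The 6 summed to 12.3 to 13.8 CPM with beta and 15.3 to 16.1 CPM with alpha, against 9.36 to 9.77 CPM with GFP, and to 13.04 to 13.19 CPM in KO5 and 8.52 to 9.10 CPM in KO2, against 10.2 to 12.1 CPM in WT. POSTN averaged 2.66 CPM with beta and 3.23 CPM with alpha, against 0.0570 CPM with GFP. The part of these markers in the results was not tested.

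PRDM1 was present in quantity only where it was overexpressed. The beta libraries held 22395 and 28423 PRDM1 counts (1173 and 1172 CPM) and the alpha libraries 11475 and 9681 (487 and 477 CPM), against 2 and 6 counts in the GFP libraries. KO5 libraries held 1 and 1 counts and KO2 libraries 0 and 1, against 4 and 4 in WT libraries. PRDM1 was 2.43-fold higher with beta than with alpha, so that the form of the protein and the amount of its transcript cannot be told apart in any comparison of beta with alpha.

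**Figure D1:**
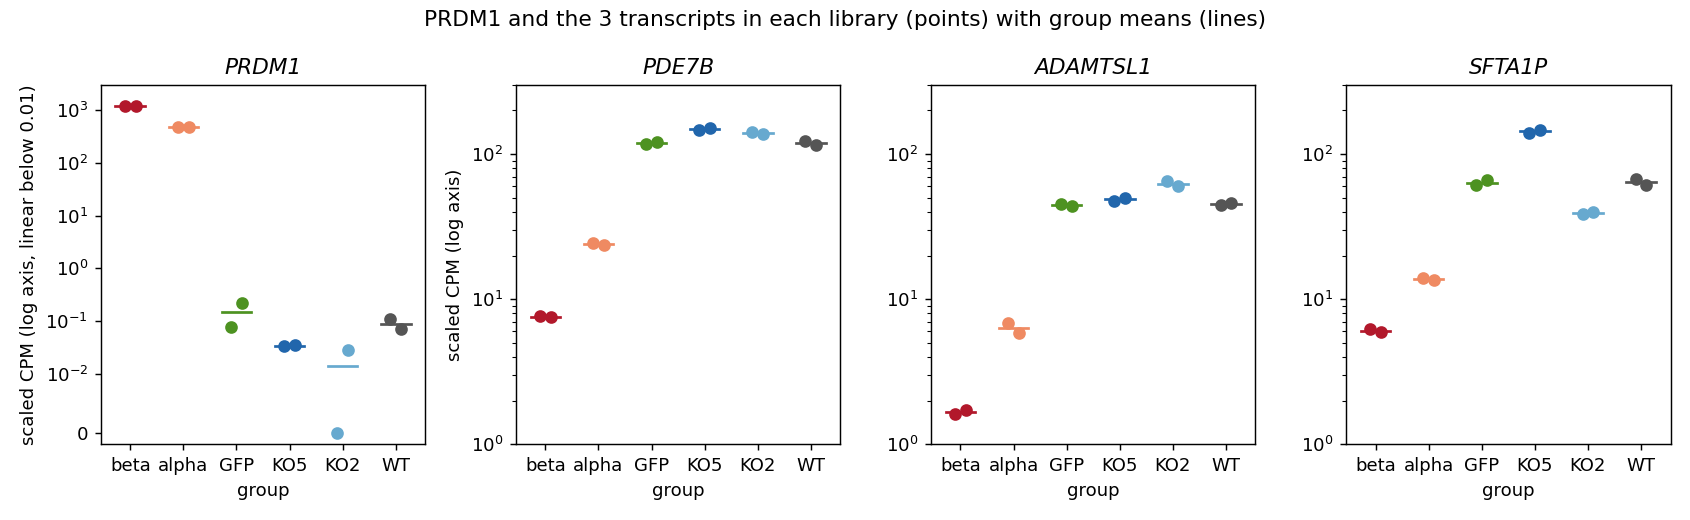
Scaled CPM of PRDM1, PDE7B, ADAMTSL1 and SFTA1P in each of 12 libraries (points) with group means (lines), by group, on log axes (PRDM1 linear below 0.01). PRDM1 stands at 1173 CPM with beta and 482 CPM with alpha, and the other 3 transcripts descend where it is present, while SFTA1P also separates KO5 from KO2.

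PDE7B had 7.65 and 7.50 CPM in beta libraries and 24.4 and 23.5 CPM in alpha libraries, against 117 and 121 CPM in GFP libraries. The 3 groups do not overlap, with beta lowest, alpha between and GFP highest. The means were 6.38% of GFP with beta and 20.2% with alpha. On the log2 scale beta minus GFP was -3.97 ± 0.09 (standard error, n = 2 libraries per group here and below) and alpha minus GFP was -2.31 ± 0.06, or 15.7-fold and 4.95-fold lower. Beta minus alpha was -1.66 ± 0.10, or 3.17-fold lower with beta.

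Of the 3 transcripts ADAMTSL1 differed most from GFP. It had 1.62 and 1.73 CPM in beta libraries, from 31 and 42 counts, and 6.87 and 5.82 CPM in alpha libraries, against 45.1 and 44.2 CPM in GFP libraries. Again no library of a group reached the next group. Beta stood at 3.75% and alpha at 14.2% of the GFP mean. Beta minus GFP was -4.73 ± 0.17, or 26.5-fold lower, alpha minus GFP was -2.81 ± 0.10, and beta minus alpha was -1.92 ± 0.19, or 3.78-fold lower.

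SFTA1P had 6.18 and 5.98 CPM in beta libraries and 14.1 and 13.5 CPM in alpha libraries, against 60.9 and 66.5 CPM in GFP libraries. The order was the same and the steps were smaller. Beta held 9.55% and alpha 21.7% of the GFP mean. Beta minus GFP was -3.39 ± 0.10, alpha minus GFP was -2.21 ± 0.07 and beta minus alpha was -1.19 ± 0.12, or 2.28-fold lower with beta. PRDM1 reads rose 2.43-fold from alpha to beta, not corrected for the length of either form. Set beside this, the step between the forms was larger in PDE7B (3.17-fold) and ADAMTSL1 (3.78-fold) and of similar size in SFTA1P. The amount of PRDM1 protein is not known from these data. In bulk RNA, fewer cells with a transcript and less of it per cell cannot be told apart.

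GFP cells resembled WT cells in all 3 transcripts. GFP minus WT was -0.0040 ± 0.04 for PDE7B, -0.021 ± 0.05 for ADAMTSL1 and -0.0081 ± 0.05 for SFTA1P on the log2 scale, and the GFP and WT libraries overlap for each. The GFP libraries took part in the choice of the transcripts, so this too is a description.

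Few genes share the graded pattern. With beta 40.9% of all tested genes were called against GFP (22.9% higher, 18.0% lower) and with alpha 37.5% (21.2% higher, 16.3% lower), and 6.24% were called between beta and alpha (2.79% higher and 3.45% lower with beta), at an adjusted p under 0.05 by edgeR's quasi-likelihood test with Benjamini-Hochberg adjustment. All 3 members are among the genes called lower in each of these comparisons, as their choice requires. In all, 1598 genes were called lower with both forms, of which 101 were also lower with beta than with alpha. The opposite pattern, higher with both and higher with beta than with alpha, held for 125 genes. Both forms are set against the same GFP libraries, so the calls with beta and alpha are not independent.

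Among the 101 genes, 13 had at least 5 CPM with GFP and were at least 2-fold lower at both steps, and the 3 members are among them. In order of their GFP level the 13 were ANXA1, JAG1, MYOF, PDE7B, TNS4, SFTA1P, ADAMTSL1, ERAP2, PCLO, GBP3, TLR3, LINC00326 and PSMB9. Annexin A1 (ANXA1), a phospholipid-binding protein, averaged 139.5 CPM with beta and 456 CPM with alpha, against 1021 CPM with GFP. JAG1, a Notch ligand, averaged 29.8 CPM with beta and 117 CPM with alpha, against 328 CPM with GFP. The toll-like receptor gene TLR3 had the largest size of change of the 13, with beta minus GFP at -6.05 and alpha minus GFP at -2.95, but from a GFP level of 7.91 CPM. ADAMTSL1 had the second largest alpha change of the 13, at -2.81.

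**Figure D2:**
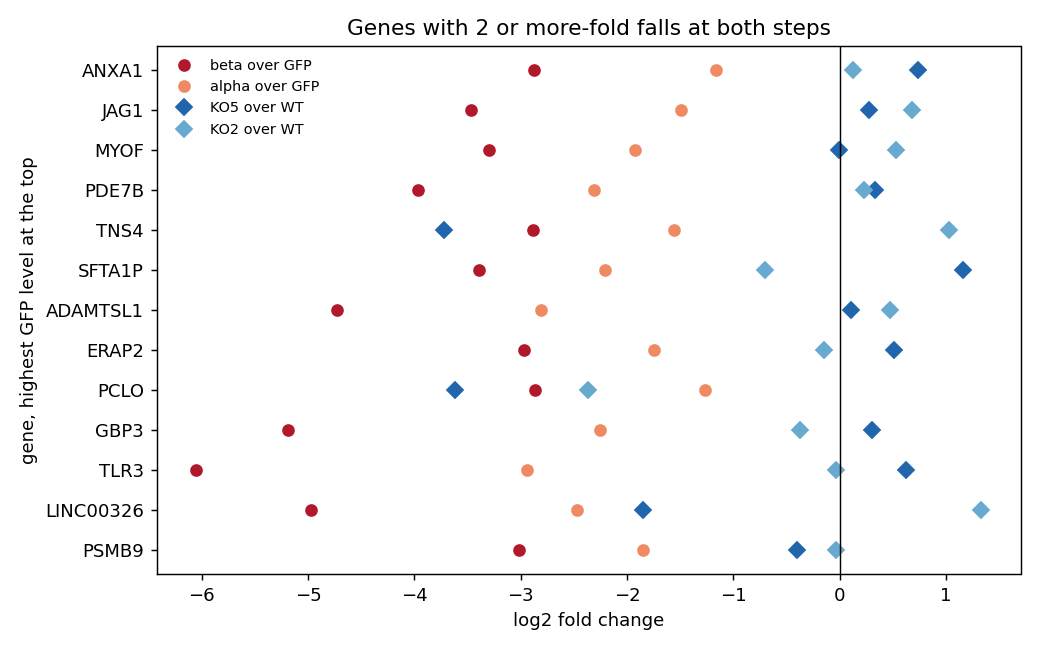
Log2 fold change of the 13 genes at least 2-fold lower with alpha than GFP and again with beta than alpha (horizontal axis) for beta and alpha over GFP (circles) and KO5 and KO2 over WT (diamonds). The circles were used to choose the genes. The diamonds scatter on both sides of 0, from -3.73 for TNS4 in KO5 to 1.33 for LINC00326 in KO2.

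The knockout derivatives are not part of the pattern used for the choice and were tested, with earlier results of these data known. PDE7B was higher in both, with 147 and 152 CPM in KO5 and 142 and 138 CPM in KO2, against 123 and 116 CPM in WT. Neither derivative overlaps WT. KO5 minus WT was 0.33 ± 0.04 (adjusted p = 5.31e-11 by edgeR's quasi-likelihood test, higher in 2 of 2 libraries) and KO2 minus WT was 0.23 ± 0.04 (adjusted p = 4.40e-07 by the same test). These rises were 1.26-fold and 1.17-fold. Of all tested genes 51.2% were called in KO5 against WT (25.2% higher, 25.9% lower) and 30.0% in KO2 against WT (15.1% higher, 14.9% lower).

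ADAMTSL1 was also highest in a knockout, but in KO2. It had 47.9 and 49.9 CPM in KO5 and 65.3 and 60.0 CPM in KO2, against 44.9 and 45.7 CPM in WT. KO2 minus WT was 0.47 ± 0.04 (adjusted p = 4.77e-12, edgeR). KO5 minus WT was 0.11 ± 0.05 and did not pass (adjusted p = 0.0513, edgeR), although the KO5 libraries stand above both WT libraries. The ratio of KO5 to WT was 1.08 with a 95% interval of 1.01 to 1.15, not adjusted for the number of genes tested. This value crossed the threshold under 6 of the 17 alternatives, without a change of direction.

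SFTA1P moved in opposite directions in the knockouts. It had 141 and 146 CPM in KO5 and 38.6 and 40.2 CPM in KO2, against 67.7 and 61.1 CPM in WT. KO5 lies above and KO2 below every WT library. KO5 minus WT was 1.16 ± 0.04 (adjusted p = 4.47e-27, edgeR), a 2.24-fold rise, and KO2 minus WT was -0.70 ± 0.05 (adjusted p = 6.86e-17, edgeR), a 1.63-fold fall.

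The derivatives were then compared with each other, where 54.9% of all tested genes were called (26.9% higher and 28.1% lower in KO5). SFTA1P was 3.65-fold higher in KO5 than in KO2, with KO5 minus KO2 at 1.87 ± 0.05 (adjusted p = 4.22e-34, edgeR). ADAMTSL1 was lower in KO5 than in KO2, at -0.36 ± 0.05 (adjusted p = 7.41e-09, edgeR). PDE7B was higher in KO5 by 0.10 ± 0.04 (adjusted p = 0.0164, edgeR), a call lost without KO2 replicate 2 (0.077, adjusted p = 0.133) and without KO5 replicate 2 (0.075, adjusted p = 0.158). PRDM1 counts of 0 or 1 per knockout library and 4 per WT library did not pass edgeR's test in KO5 against WT (adjusted p = 0.299) or KO2 against WT (adjusted p = 0.0733), a difference not detectable at this depth.

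**Figure D3:**
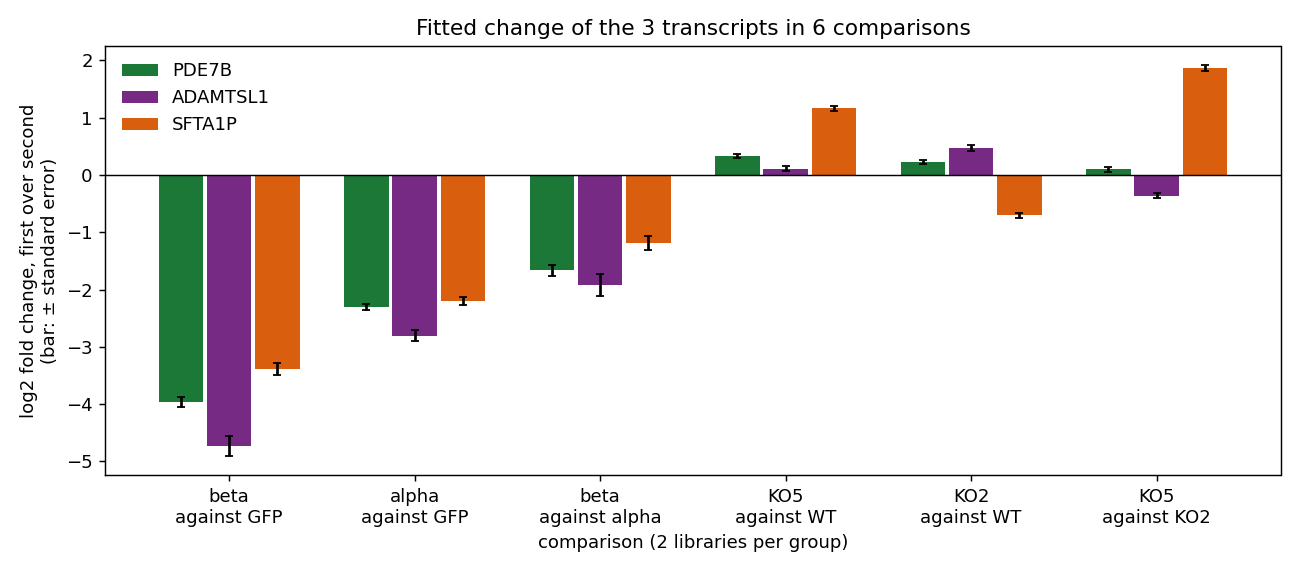
Fitted log2 fold change with its standard error (bars) of PDE7B, ADAMTSL1 and SFTA1P in 6 comparisons, first group over second. All 9 values with beta and alpha are negative, as the choice of the genes requires, whereas in the knockouts PDE7B and ADAMTSL1 stand between 0.11 and 0.47 above WT and SFTA1P at 1.16 in KO5 and -0.70 in KO2.

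The order of the 6 groups differs between the transcripts only in the knockouts. From low to high PDE7B runs beta, alpha, GFP, WT, KO2 and KO5, ADAMTSL1 runs beta, alpha, GFP, WT, KO5 and KO2, and SFTA1P runs beta, alpha, KO2, GFP, WT and KO5. GFP and WT are the only neighbours in these orders whose libraries overlap. Likeness of pattern was measured as the mean absolute difference, over the 5 groups other than WT, of the log2 difference from WT. Of these 5 groups beta, alpha and GFP are those by which the transcripts were chosen, so closeness among them and to other genes of the graded pattern follows largely from the choice and is a description. By this measure PDE7B and ADAMTSL1 were each other's nearest gene, 0.34 apart. PDE7B was followed by JAG1 (0.35), MYOF (0.37), GBP3 (0.37) and ERAP2 (0.48). For ADAMTSL1 the next were GBP3 (0.41), TLR3 (0.46), MYOF (0.53) and JAG1 (0.57). SFTA1P was nearest to LYPLAL1 (0.44), ZNF397 (0.44), ERAP2 (0.47), PDE7B (0.49) and TRIM5 (0.52).

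ZNF397 and LYPLAL1 were picked by a measure that includes the knockouts, so their likeness to SFTA1P there follows from the picking. Their levels are a description. ZNF397, a zinc finger gene, averaged 192 CPM in KO5 and 59.6 CPM in KO2, against 93.1 CPM in WT, and 21.0 CPM with beta and 32.2 CPM with alpha, against 97.8 CPM with GFP. LYPLAL1, a lysophospholipase-like gene, averaged 143 CPM in KO5 and 57.2 CPM in KO2, against 71.9 CPM in WT. It averaged 14.7 CPM with beta and 21.0 CPM with alpha, against 75.9 CPM with GFP.

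The authors' deposited tables compare each form with KO2 and KO5 pooled, since the mean they list was rebuilt from those libraries. For PDE7B the authors' deposited table gives -4.0 ± 0.10 with beta and -2.50 ± 0.08 with alpha (log2, standard error). For ADAMTSL1 the authors' deposited table gives -3.97 ± 0.16 with beta and -2.65 ± 0.14 with alpha. For SFTA1P the authors' deposited table gives -0.56 ± 0.18 with beta and -0.45 ± 0.17 with alpha. The fit used here gave -4.25 ± 0.08 for beta and -2.59 ± 0.05 for alpha in PDE7B, and -5.04 ± 0.17 for beta and -3.12 ± 0.09 for alpha in ADAMTSL1, against the mean of both knockouts on the log2 scale. The ADAMTSL1 libraries behind that mean lie at 47.9 and 49.9 CPM in KO5 and at 65.3 and 60.0 CPM in KO2. The deposited values are smaller in size for PRDM1 too, at 10.5 ± 0.14 with beta and 9.27 ± 0.14 with alpha. For PRDM1 the fit used here gave 15.5 ± 0.88 with beta and 14.2 ± 0.88 with alpha. The cause of these gaps was not tested. The same fit gave -3.63 ± 0.10 for beta and -2.44 ± 0.07 for alpha in SFTA1P. The SFTA1P libraries behind that mean lie at 141 and 146 CPM in KO5 and at 38.6 and 40.2 CPM in KO2, and the part of this spread in the smaller deposited value was not tested.

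The other phosphodiesterase genes were read next. Of 23 other cyclic nucleotide phosphodiesterase genes 10 were tested, and 1 was called higher, 1 lower and 8 neither with beta, and 1 higher, 2 lower and 7 neither with alpha. Over all tested genes 40.9% were called with beta and 37.5% with alpha. Their median log2 change was 0.051 with beta and -0.034 with alpha, against 0.012 with beta and 0.010 with alpha over all tested genes. PDE7A, the closest relative of PDE7B, had 51.9 and 51.5 CPM with beta and 51.0 and 46.1 CPM with alpha, against 53.9 and 56.9 CPM with GFP. Its beta change was -0.10 ± 0.05 (adjusted p = 0.101, edgeR) and its alpha change was -0.19 ± 0.05 (adjusted p = 0.00229, edgeR). PDE8A, which like PDE7B prefers cAMP, fell by 0.17 ± 0.05 with beta (adjusted p = 0.00253, edgeR) and by 0.22 ± 0.05 with alpha. PDE4D, a cAMP-specific phosphodiesterase, rose by 0.88 ± 0.05 with beta (adjusted p = 4.35e-20, edgeR) and by 0.65 ± 0.05 with alpha (adjusted p = 4.58e-15, edgeR).

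PDE4D had 81.9 and 79.1 CPM in beta libraries and 71.6 and 65.4 CPM in alpha libraries, against 44.0 and 43.5 CPM in GFP libraries. The groups do not overlap, and their order is the reverse of that of PDE7B. PDE4D fell in both knockouts, by 0.29 ± 0.05 in KO5 (adjusted p = 7.57e-06, edgeR) and by 0.63 ± 0.05 in KO2 (adjusted p = 3.23e-14, edgeR). PDE3B, PDE5A, PDE6D and PDE4A did not pass with either form. PDE3B stood at 0.12 ± 0.06 with beta and -0.08 ± 0.06 with alpha. PDE1C, PDE6C, PDE6H and PDE9A had 0 counts in every library. Of the 10 tested genes 4 were called higher and 3 lower in KO5 against WT, where 51.2% of all tested genes were called, and 2 higher and 3 lower in KO2 against WT, where 30.0% were.

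Of 36 other cAMP pathway genes 25 were tested, of which 11 were called higher and 2 lower with beta, and 10 higher and 0 lower with alpha. Over all tested genes 22.9% were called higher and 18.0% lower with beta, and 21.2% higher and 16.3% lower with alpha. Their median log2 change was 0.064 with beta and 0.057 with alpha. Among those of at least 5 CPM the largest change was in AKAP12, which anchors protein kinase A, with 118 and 118 CPM in beta libraries and 92.3 and 85.7 CPM in alpha libraries, against 30.0 and 29.9 CPM in GFP libraries. It rose by 1.98 ± 0.05 with beta (adjusted p = 1.18e-34, edgeR) and by 1.57 ± 0.05 with alpha (adjusted p = 5.50e-30, edgeR). At a lower level PRKACB, a catalytic subunit gene of protein kinase A, averaged 1.09 CPM with beta (adjusted p = 6.41e-08, edgeR) and 0.973 CPM with alpha (adjusted p = 3.17e-07, edgeR), against 0.0361 CPM with GFP. The anchor gene AKAP13 rose by 0.39 ± 0.06 and 0.33 ± 0.06 with beta and alpha, the CREB coactivator gene CRTC1 by 0.35 ± 0.11 and 0.31 ± 0.11, the modulator gene CREM by 0.23 ± 0.06 and 0.19 ± 0.06, and the catalytic subunit gene PRKACA by 0.14 ± 0.05 and 0.22 ± 0.05. The 2 called lower with beta were AKAP1 (-0.16 ± 0.04, adjusted p = 5.71e-04, edgeR) and ATF1 (-0.15 ± 0.06, adjusted p = 0.0352, edgeR), and neither passed with alpha. CREB1, which binds the cAMP response element, did not pass with beta (0.042 ± 0.05) or alpha (-0.013 ± 0.05). In KO5 against WT 5 of the 25 were called higher and 5 lower, beside 51.2% of all tested genes called, and in KO2 against WT 4 higher and 4 lower, beside 30.0%.

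The relatives of ADAMTSL1 were mostly too low to test. Of 25 other ADAMTS and ADAMTSL family genes 8 were tested, and 4 were called higher, 1 lower and 3 neither with each form, beside 22.9% of all tested genes higher and 18.0% lower with beta and 21.2% and 16.3% with alpha, with a median log2 change of 0.29 with beta and 0.47 with alpha. ADAMTSL5 rose by 0.57 ± 0.14 with beta (adjusted p = 7.65e-04, edgeR) and by 0.55 ± 0.14 with alpha. THSD4, also called ADAMTSL6, which acts in fibrillin microfibril assembly, rose by 1.03 ± 0.19 with beta and 1.51 ± 0.18 with alpha. The largest change of the list was in ADAMTS16, a secreted protease gene below 5 CPM, which averaged 3.69 CPM with beta and 4.42 CPM with alpha, against 0.448 CPM with GFP. ADAMTS16 rose by 3.03 ± 0.33 with beta (adjusted p = 2.58e-13, edgeR) and by 3.29 ± 0.32 with alpha (adjusted p = 4.01e-15, edgeR). In the knockouts it averaged 0.0176 CPM in KO5 (adjusted p = 2.08e-07, edgeR) and 0.126 CPM in KO2 (adjusted p = 6.13e-05, edgeR), against 0.604 CPM in WT. ADAMTSL4 did not pass, at -0.02 ± 0.15 with beta and 0.14 ± 0.15 with alpha. The member called lower was ADAMTS9, a secreted protease, which fell by 0.84 ± 0.13 with beta (adjusted p = 5.55e-07, edgeR) and by 0.65 ± 0.13 with alpha. ADAMTSL2 had at most 1 count and ADAMTSL3 had 0 counts in any library. Of the 8 tested genes 2 were called higher and 4 lower in KO5 against WT, beside 25.2% and 25.9% of all tested genes, and 0 higher and 3 lower in KO2 against WT, beside 15.1% and 14.9%.

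ADAMTS-like proteins carry thrombospondin repeats that POFUT2 and B3GLCT glycosylate, and they bind fibrillin and latent TGF-beta binding proteins. A list of these genes and of other matrix genes, among them fibulins and thrombospondins, held 20 counted genes. Of these 9 were tested, and 5 were called higher and 2 lower with beta and 4 higher and 1 lower with alpha. Over all tested genes 22.9% were called higher and 18.0% lower with beta, and 21.2% and 16.3% with alpha. POFUT2 rose by 0.23 ± 0.06 with beta and 0.21 ± 0.06 with alpha, and B3GLCT by 0.21 ± 0.07 and 0.31 ± 0.06. LTBP4 rose by 0.68 ± 0.09 with beta and 0.55 ± 0.09 with alpha, whereas LTBP1 fell by 0.32 ± 0.07 with beta and by 0.46 ± 0.07 with alpha. At lower levels the fibrillin gene FBN2 averaged 0.749 CPM with beta (adjusted p = 8e-06, edgeR) and 1.55 CPM with alpha (adjusted p = 3.92e-10, edgeR), against 0.0556 CPM with GFP. LTBP2 averaged 0.534 CPM with beta and 1.51 CPM with alpha, against 1.34 CPM with GFP, and fell by 1.26 ± 0.39 with beta (adjusted p = 0.00444, edgeR) while it did not pass with alpha (0.18 ± 0.29, adjusted p = 0.679, edgeR). Of the 9 tested genes 1 was called higher and 5 lower in KO5 against WT, beside 25.2% and 25.9% of all tested genes, and 2 higher and 1 lower in KO2 against WT, beside 15.1% and 14.9%. The median log2 change of the 9 was 0.21 with beta and 0.18 with alpha.

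Most surfactant genes were nearly silent in these cells. Of 11 surfactant genes 2 were tested, ABCA3, a lipid transporter, and LAMP3, a lysosomal membrane protein, both of which other cells also express. ABCA3 averaged 67.2 CPM with beta and 66.2 CPM with alpha, against 56.5 CPM with GFP. LAMP3 averaged 8.53 CPM with beta and 9.18 CPM with alpha, against 10.7 CPM with GFP. ABCA3 rose by 0.25 ± 0.05 with beta (adjusted p = 2.15e-05, edgeR) and by 0.23 ± 0.05 with alpha. LAMP3 fell by 0.34 ± 0.11 with beta (adjusted p = 0.00692, edgeR) and stood at -0.22 ± 0.10 with alpha (adjusted p = 0.0761, edgeR).

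The chromosomal neighbours were read next, taking the 4 nearest genes of the files on each side in the RefSeq order. Around PDE7B 6 of 8 were tested, and 5 were called lower with beta and 5 with alpha, with medians of -0.37 and -0.33 on the log2 scale, beside 18.0% of all tested genes called lower with beta and 16.3% with alpha. MAP3K5, a stress-activated kinase gene, fell by 0.94 ± 0.06 with beta (adjusted p = 2.32e-18, edgeR) and by 0.78 ± 0.06 with alpha. AHI1, a cilium gene, fell by 0.45 ± 0.06 and by 0.35 ± 0.06 with beta and alpha, MAP7 by 0.40 ± 0.05 and 0.31 ± 0.05, MTFR2 by 0.35 ± 0.06 and 0.27 ± 0.06, and the transcription factor gene MYB by 0.24 ± 0.07 and 0.47 ± 0.08. BCLAF1 did not pass, at 0.02 ± 0.03 with beta and -0.06 ± 0.03 with alpha. None of the 6 was called different between beta and alpha. All 6 were called higher in KO2 than in WT, with a median of 0.20 on the log2 scale, beside 15.1% of all tested genes. In KO5 against WT 2 were called higher, 1 lower and 3 neither, with a median of 0.062. Over all tested genes 25.2% were called higher and 25.9% lower in KO5.

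Around ADAMTSL1 3 of 8 were tested, and 2 were called lower with beta and 2 with alpha, beside 18.0% and 16.3% of all tested genes. RRAGA, a GTPase of amino acid sensing, fell by 0.27 ± 0.05 with beta and by 0.25 ± 0.05 with alpha, and HAUS6, a spindle gene, fell by 0.10 ± 0.04 and by 0.18 ± 0.04. CNTLN did not pass. SH3GL2, the nearest gene before ADAMTSL1, had 0 to 3 counts per library. RefSeq also lists PDE7B-AS1 and other noncoding transcripts over PDE7B and ADAMTSL1, which were not analysed here and whose reads may be counted with them.

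Around SFTA1P 2 of 8 were tested. USP6NL did not pass with beta (-0.03 ± 0.05) or alpha (-0.02 ± 0.05). CELF2, an RNA-binding protein gene, spans SFTA1P on the opposite strand in RefSeq and GENCODE and followed its direction. CELF2 had 1 and 2 counts in beta libraries and 7 and 2 in alpha libraries, against 20 and 27 in GFP libraries. It had 34 and 44 counts in KO5 and 17 and 10 in KO2, against 29 and 49 in WT. The ratio to GFP was 0.0781 (95% interval 0.0156 to 0.243) with beta and 0.232 (0.0999 to 0.478) with alpha, by exact binomial intervals that cover counting error only. KO5 minus WT was 0.69 ± 0.25 (adjusted p = 0.0209, edgeR) and KO2 minus WT was -1.27 ± 0.34 (adjusted p = 0.00197, edgeR), the same directions as in SFTA1P. The library kit keeps the strand, but whether reads were counted by strand is not stated, so reads of the 2 genes cannot be told apart with certainty.

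**Figure D4:**
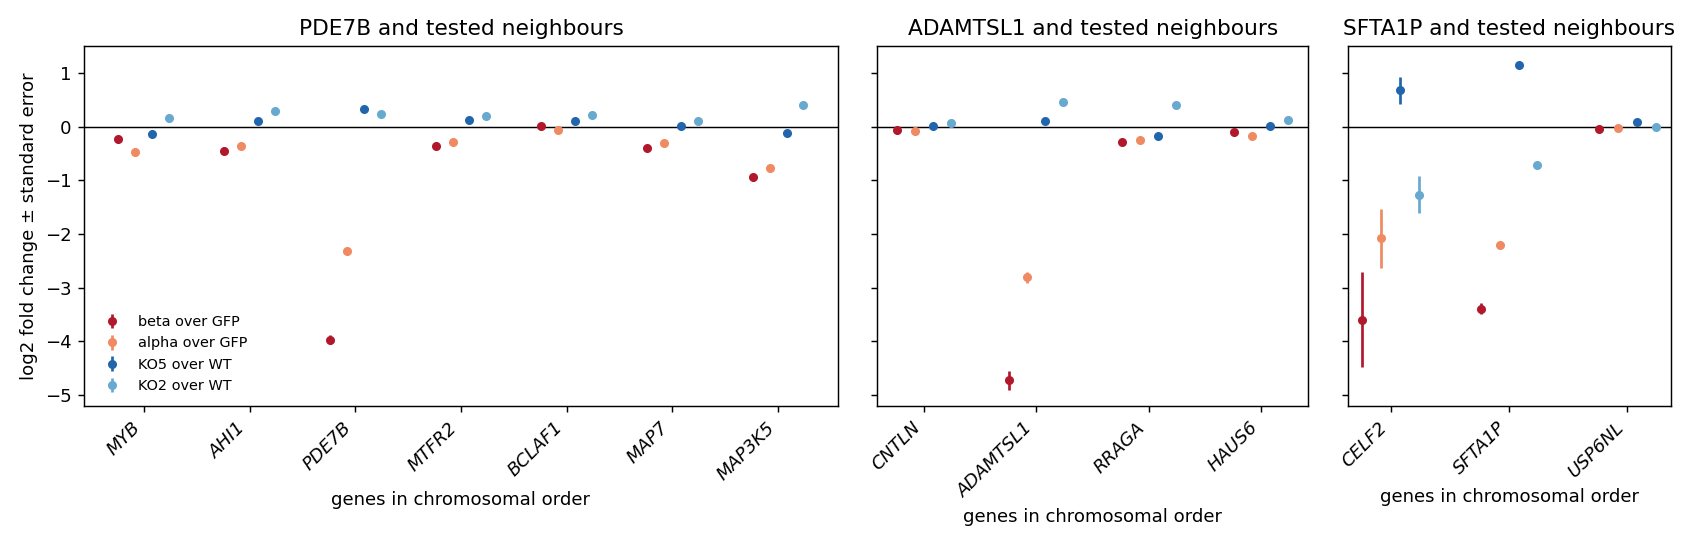
Log2 fold change with standard error (vertical axis) of the 3 transcripts and their tested neighbours in chromosomal order, for beta and alpha over GFP and KO5 and KO2 over WT. With beta and alpha PDE7B and ADAMTSL1 stand below their neighbours, as follows from their choice, and the largest fall among those neighbours is -0.94 in MAP3K5. PDE7B in KO5 (0.33) and ADAMTSL1 in KO5 (0.11) and KO2 (0.47) stand above their neighbours, with RRAGA close to ADAMTSL1 in KO2 (0.41). PDE7B in KO2 (0.23) stands below MAP3K5 (0.42) and AHI1 (0.29). CELF2 lies on the same side of 0 as SFTA1P in all 4 comparisons.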

How the data were processed

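Polyadenylated RNA of 12 RKO libraries was read with a stranded kit, per the labels' protocols. TopHat, Bowtie2 and Cufflinks with build hg19 are named in the submitters' processing notes, in versions not given in the sources used here. The authors deposited counts, whole numbers of reads per gene symbol, not normalized, 26366 entries per library, of which 2 name no gene. Those 2, 9.13% to 10.8% (no feature) and 1.66% to 1.75% (ambiguous) of reads, were left out. Per the file headers and names the authors deposited DESeq2 tables of overexpression against knockout, with log2 fold changes, p-values, a score (the test statistic) and 1 other column, the mean of normalized counts. Of these the log2 values and standard errors are printed. The table named for both forms is a copy of the beta table and was not used. Which libraries entered was checked by rebuilding that mean.

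Counts were filtered with filterByExpr, scaled by TMM (trimmed mean of M values) and fitted with edgeR 4.0.16 (quasi-likelihood, robust, R 4.3.3) with 1 mean per group over all 12 libraries, and adjusted over the 12858 tested genes at 0.05. Standard errors come from the fitted information matrix, with a quasi-likelihood dispersion below 1 set to 1. Likeness used log2 CPM with a prior count of 2 and genes of at least 5 CPM in the highest group. The fit was tested on simulated data. A marker gene is not reported here. The 2 libraries of each group differed beyond sampling noise. The members, lists and tests were chosen with earlier results of these data known. Named were the members, listed relatives, neighbours, the nearest genes by pattern and up to 5 called members of each list with at least 5 CPM, and other list members of high level. CREB1, AKAP1, ATF1, PRKACB, ADAMTS16, FBN2, LTBP2 and genes singled out at 0 counts were named after their values were seen. Alternatives were other size factors, no filter, DESeq2 1.42.0, only the compared groups, a replicate block and each library left out.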

Additional observations from a re-analysis of the deposited data

Results flagged for a closer look

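The derivatives KO5 and KO2 differed from each other, by edgeR's test, in all 3 transcripts. On the log2 scale, KO5 minus KO2, the difference was 0.10 for PDE7B (adjusted p = 0.0164), -0.36 for ADAMTSL1 (adjusted p = 7.41e-09) and 1.87 for SFTA1P (adjusted p = 4.22e-34). SFTA1P rose in KO5 and fell in KO2. Among the neighbours CELF2 differed by 1.95, RRAGA by -0.59, MAP3K5 by -0.53, MYB by -0.30, AHI1 by -0.18, HAUS6 by -0.11 and BCLAF1 by -0.10. With 54.9% of all tested genes called between KO5 and KO2, a difference between the knockouts is common in these libraries. The part of PRDM1 loss in the differences of either derivative was not tested. Beta and alpha libraries differed, beta minus alpha, by 0.40 in AKAP12, 0.23 in PDE4D, 0.20 in PDE3B and -0.15 in AKAP1. These are the listed genes called, of at least 5 CPM in some group. Below that level beta and alpha libraries differed by -1.44 in LTBP2 (adjusted p = 0.00916, edgeR) and by -1.06 in FBN2 (adjusted p = 0.0309, edgeR). Of all tested genes 6.24% were called between beta and alpha. The form of PRDM1 and the amount of its transcript cannot be told apart in these differences.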

How the results depend on the processing

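All 306 values of the 3 transcripts under the alternatives kept their direction, and 144 of the 153 tested ones kept their side of the threshold. The exceptions were ADAMTSL1 in KO5 against WT, which passed with DESeq2-style (RLE) size factors (0.12, adjusted p = 0.0335) and with only the compared groups (0.11, adjusted p = 0.0413), and PDE7B in KO5 against KO2, which did not pass with the DESeq2 Wald test (0.10, adjusted p = 0.0579). The cause was not tested. With 1 library left out, ADAMTSL1 in KO5 against WT lay between 0.079 and 0.14 (passing without either KO2 or either GFP library) and PDE7B in KO5 against KO2 between 0.075 and 0.12. The lone library is then assumed to vary like the other groups. The number of genes called between beta and alpha, 802, was 442 with the DESeq2 Wald test and 395 to 899 with 1 library left out (487 without alpha replicate 1, 443 without alpha replicate 2, 495 without beta replicate 1 and 395 without beta replicate 2). The number called in KO2 against WT, 3857, was 2425 with the DESeq2 Wald test and 2563 to 4070 with 1 library left out, the lowest without WT replicate 2. No deviation shared by replicate number was seen, with none of 15 correlations of deviations between groups over 0.1 (-0.07 to 0.06). These correlations cannot tell whether the libraries were prepared in pairs. With the replicate block 775 genes were called between beta and alpha and no call of the 3 transcripts changed. ADAMTSL1 in beta rests on 31 and 42 counts and CELF2 on 1 and 2.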

Other observations

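A wider window of the 10 nearest tested genes on each side was set after the values of the 4 nearest were seen and carries no test. Around ADAMTSL1 12 of 20 were called lower with beta and 13 with alpha, with medians of -0.21 and -0.18 on the log2 scale, against 18.0% and 16.3% of all tested genes. Around PDE7B 6 of 20 were called lower with each form, and around SFTA1P 5 of 20. The PDE7B window also holds LINC00326, a noncoding transcript with the same graded pattern, with beta minus GFP at -4.97 and alpha minus GFP at -2.47. LINC00326 was lower in KO5 and higher in KO2, by -1.85 and 1.33 against WT, the reverse of SFTA1P.

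The promoter motifs were also counted over the genes called lower with both forms and lower still with beta. AGNGAAAG stood in 11.3% of the 115 RefSeq windows of such genes, against 5.45% of 13721 windows of tested genes, GAAAGT in 13% against 9.07%, the interferon response element in 6.96% against 2.5% and TGACGTCA in 3.48% against 2.47%. The shorter TGACG went the other way, with 16.5% against 28%. The windows include several starts of some genes, the genes were chosen on these data, and no test was made.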
